A study of Mus musculus with 20 samples.

Results

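The 10 genes described here are commonly used marks of macrophages in tissue. They were taken by symbol: the rows of the count table whose Ensembl identifier carries the symbol Csf1r, Adgre1, Cd68, Cd163, Mrc1, Lyz2, C1qa, C1qb, C1qc or Ccr2 in the GENCODE mouse annotation. All 10 of the 10 were found among 26619 gene identifiers in the table and all 10 were among the 17893 genes that passed the filter on low counts. The tissue was the distal colon (DC) of 20 C57BL/6 mice. After weaning, every mouse was fed the Total Western Diet (TWD), which mimics the nutrient pattern of the American diet, for 6 weeks. The mice then stayed on the plain TWD (0%) or were given the TWD containing resistant potato starch (RPS, raw potato starch in the sample labels) at 2, 5 or 10% for a further 3 weeks (n = 5 mice per diet). All groups therefore shared the Western diet, and the 0% mice were the control. The age at tissue collection is not given in the labels, and the tissue was taken whole, without sorting of cells.

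Macrophages of the colon wall engulf dying cells and bacteria that cross the epithelium, and without injury they mostly stay quiet rather than inflamed. Many are renewed from blood monocytes, which enter the tissue through the chemokine receptor Ccr2 and lose this receptor as they mature, while the receptor for colony stimulating factor 1, Csf1r, keeps the mature cells alive. Mature cells of the deeper wall make the scavenger receptors Cd163 and Mrc1 (CD206), and macrophages are a main source of complement C1q, whose chains are encoded by C1qa, C1qb and C1qc. In whole tissue, fewer macrophages and less messenger RNA per macrophage cannot be told apart.

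The libraries held between 18429493 and 34974230 counts. The 0% RPS mice, at 31254832 counts or more, were sequenced more deeply than all mice of the other diets, and the 10% RPS mice held 26595092 counts or fewer. Values are given as CPM, the counts of a gene relative to the scaled total of its library, so that they can be compared between mice, and n is 5 mice per diet throughout. For 3 mice the description and the treatment label give different RPS levels (mice RS10_717, RS10_725 and RS10_748), and the description was used. The tissue carried the transcripts of distal colon, with Hoxb13, a marker of the hind end of the gut, at 520.4 ± 54.7 CPM (SD) at 0% RPS. Mouse RS10_721 of the 5% RPS group also held transcripts of pancreas, with a summed level of 4020 CPM over the listed pancreas genes compared with at most 2.31 CPM in the 0% RPS mice, and a mouse at 10% RPS reached 344.1 CPM. Mouse RS10_721 was the lowest of the 20 mice for 6 of the 10 macrophage genes, the part of the pancreas transcripts in this was not tested, and values without the mouse follow.

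The question asked of the 10 genes was whether adding RPS to the TWD altered the macrophage transcripts of the DC. Of these genes, 9 had lower mean levels in each RPS group than in the 0% RPS group, and the exception was Ccr2, the receptor of incoming monocytes. The control mice had a summed level of 402.8 ± 95.7 CPM over the 10 genes. This sum was 333.4 ± 30.6 CPM in mice given 2% RPS, 296.8 ± 33.7 CPM with 5% and 334.2 ± 40.0 CPM with 10%. The lowest mean was thus at 5% RPS, not at the highest dose. The sums ran from 289.2 to 541.9 CPM among the 0% RPS mice and from 255.0 to 345.6 CPM at 5% RPS, and these ranges overlapped. By the main test (edgeR, adjusted p at most 0.05 and a fold change of at least 1.5) 0 of the 10 genes were called at any RPS level, compared with 0.0391% of all tested genes at 10% RPS, 0.0% at 5% RPS and 0.0% at 2% RPS. The mice on RPS and the controls overlapped for each of the 10 genes: 0 of the 10 had all 5 mice below all 5 controls (1.15, 0.576 and 0.129% of all tested genes at 10, 5 and 2% RPS) and 0 had all 5 above (1.13, 0.464 and 0.112%).

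**Figure D1:**
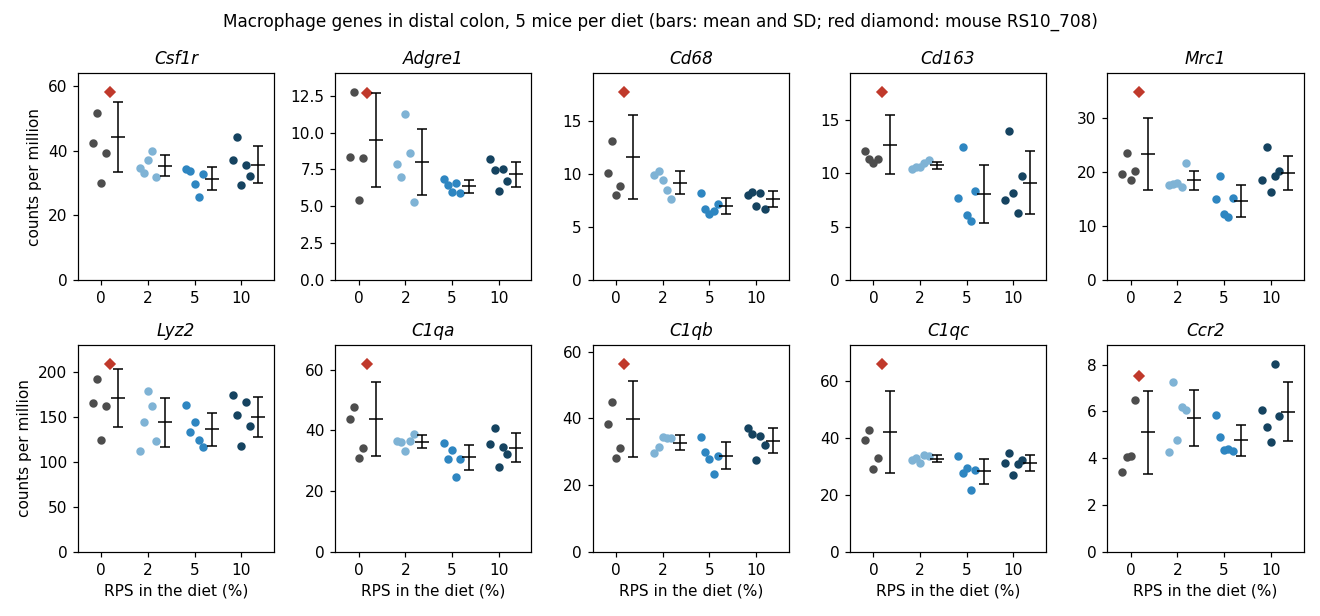
Level of each macrophage gene in CPM (vertical axes, starting at 0) by percent RPS in the diet (horizontal axes), with a point for each of 5 mice per diet and the mean and SD beside them. Mouse RS10_708 of the 0% RPS group, drawn as a red diamond, was the highest of the 20 mice for 8 of the 10 genes.

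Before adjustment, the 10 genes stood on the lower side more often than the table as a whole. At 5% RPS, 9 of the 10 were lower with an unadjusted edgeR p under 0.05, compared with 4.5% of all tested genes, and all 10 had a negative log2 fold change, compared with 52.0%. At 10 and 2% RPS 9 of the 10 were negative, compared with 53.2 and 50.4%. None of the 10 was higher with an unadjusted p under 0.05 (0 genes at each level, compared with 4.69, 7.32 and 0.693% of all tested genes at 5, 10 and 2% RPS). The median log2 fold change of the 10 was −0.54, and that of all tested genes was −0.0080. At 10% RPS, 5 of the 10 were lower with an unadjusted p under 0.05 (7.87% of all tested genes), and the median of all 10 on the log2 scale was −0.33. At 2% RPS, 3 of the 10 were lower with an unadjusted p under 0.05 (0.721% of all tested genes), with a median of −0.27. The 10 genes varied together across the mice (median Pearson r of 0.70 over the 45 pairs), so these counts of genes are not counts of separate results. The 3 comparisons share the same 5 control mice, so they are not independent of each other. A mouse that is high among the controls lowers all 3.

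Mouse RS10_708 of the 0% RPS group was such a mouse. It held the highest level of the 20 mice for 8 of the 10 genes, whereas mouse RS10_704 of the same group held the lowest level of its diet for 9. Without mouse RS10_708, the number of genes lower with an unadjusted p under 0.05 was 8 at 5% RPS (3.41% of all tested genes in that fit), 1 at 10% RPS (5.05%) and 0 at 2% RPS (0.811%). The median log2 fold changes without it were −0.37, −0.19 and −0.13. Without mouse RS10_721, the number at 5% RPS was 8 (3.66% of all tested genes) and the median was −0.46.

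**Figure D2:**
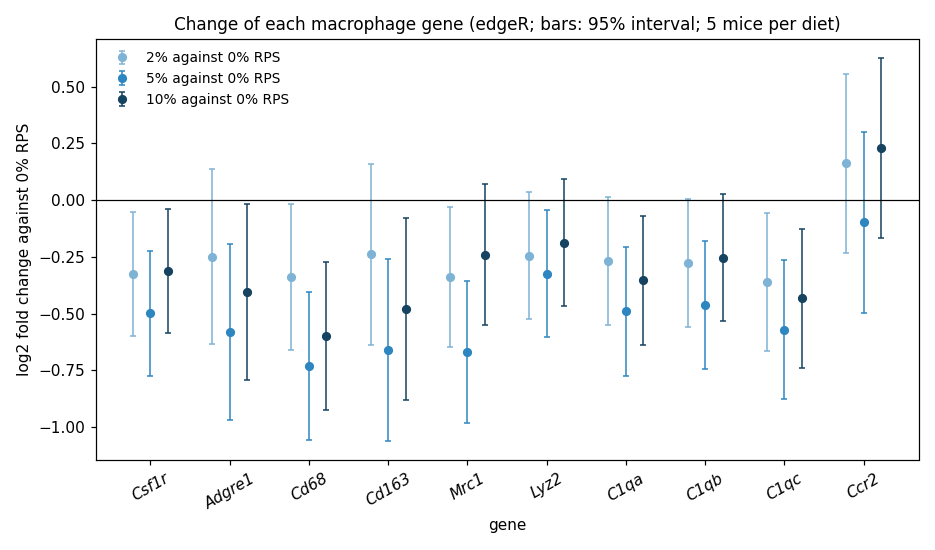
Log2 fold change of each macrophage gene against 0% RPS (vertical axis) with its 95% interval from edgeR, for 2, 5 and 10% RPS (shades of blue). At 5% RPS all 10 estimates lay below 0 and 9 intervals did not reach it, and Ccr2 was the only gene with estimates above 0, at 2 and 10% RPS.

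The receptors that define the cell type were examined first. Csf1r (ENSMUSG00000024621, chromosome 18, 61229714 to 61266535 on the plus strand of GRCm39) binds colony stimulating factor 1 and interleukin 34. In the 0% RPS mice it was at 29.9, 39.2, 42.5, 51.5 and 58.2 CPM. At 5% RPS it was at 25.7, 29.8, 32.9, 33.8 and 34.3 CPM, and at 10% RPS at 29.4, 32.0, 35.5, 37.0 and 44.3 CPM. The 5% RPS mice thus sat in the lower part of the control range, with 2 of the 5 below every control. The log2 fold change was −0.50 ± 0.14 (SE) at 5% RPS (edgeR, unadjusted p = 0.0017, adjusted p = 0.325) and −0.31 ± 0.14 at 10% RPS (unadjusted p = 0.035, adjusted p = 0.293). Adgre1, which encodes the surface protein F4/80 used to recognise mouse macrophages (ENSMUSG00000004730, chromosome 17, 57665573 to 57790527), was at 5.44, 8.27, 8.36, 12.7 and 12.8 CPM at 0% RPS. It was at 5.89, 5.95, 6.43, 6.61 and 6.84 CPM at 5% RPS. All 5 of these values lay within the control range, with a log2 fold change of −0.58 ± 0.20 (edgeR adjusted p = 0.369).

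Cd68 (ENSMUSG00000018774, chromosome 11, 69555037 to 69557067), a glycoprotein of the lysosome and endosome membrane of phagocytes, gave the largest difference of the 10 at 5 and 10% RPS. The 0% RPS mice were at 8.05, 8.87, 10.1, 13.1 and 17.7 CPM. The 5% RPS mice were at 6.26, 6.47, 6.73, 7.19 and 8.16 CPM, and the 10% RPS mice at 6.71, 6.95, 7.99, 8.23 and 8.27 CPM. At 5% RPS 4 of 5 mice, and at 10% RPS 3 of 5 mice, were below every control, so the groups overlapped only at their edges. The log2 fold change was −0.73 ± 0.17 at 5% RPS, a fold of 0.602 (edgeR, unadjusted p = 0.00022, adjusted p = 0.306), and −0.60 ± 0.17 at 10% RPS, a fold of 0.660 (unadjusted p = 0.0015, adjusted p = 0.103). DESeq2, the test named in the study's methods, did call Cd68, with an adjusted p of 0.024 at 5% RPS and 0.033 at 10% RPS. Together with Mrc1 it was 1 of 2 of the 10 genes that DESeq2 called lower at 5% RPS (0.027% of all genes, and 0.12% in either direction) and the only one at 10% RPS (0.274%, and 0.811% in either direction). At 2% RPS DESeq2 called 0 of the 10 genes and 0.00386% of all genes.

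The DESeq2 call of Cd68 rested on which mice were included. Each of the 20 mice was left out in turn, and Cd68 was called in 15 of 20 such fits at 5% RPS and in 14 of 20 at 10% RPS. Without mouse RS10_708 the log2 fold change was −0.53 at 5% RPS (DESeq2 adjusted p = 0.104) and −0.39 at 10% RPS (adjusted p = 0.199). When mice were grouped by the treatment label, DESeq2 gave Cd68 an adjusted p of 0.055 at 5% RPS and none at 10% RPS, where the gene fell under its own filter, although the log2 fold changes were −0.73 and −0.60. Without the 3 mice whose labels disagree the adjusted p-values were 0.082 and 0.064. Over the RPS percent as a line, Cd68 had a slope of −0.058 ± 0.017 log2 units per percent RPS (edgeR adjusted p = 0.0722, DESeq2 adjusted p = 0.039, where 3.81% of all genes passed). That slope had the lowest adjusted p of the 10 genes, 0 of which passed the trend test of edgeR (2.1%, or 375, of all tested genes passed). That background was itself unstable, with 0 genes by the treatment label, 56 without the 3 mice whose labels conflict and, with 1 mouse left out at a time, from 24 without RS10_784 to 1148 without RS10_727. In the test of any difference among the 4 diets 0 of the 10 passed with edgeR (0.0727% of all tested genes), and Cd68 and Mrc1 passed with DESeq2 (adjusted p = 0.011 and 0.043), where 1.35% of all genes passed.

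The scavenger receptors Cd163 and Mrc1 mark mature resident macrophages. Cd163, which takes up haemoglobin bound to haptoglobin (ENSMUSG00000008845, chromosome 6, 124281606 to 124307560), was at 10.996, 11.36, 11.37, 12.1 and 17.6 CPM at 0% RPS. It was at 10.4, 10.5, 10.6, 10.9 and 11.2 CPM at 2% RPS, at 5.57, 6.09, 7.63, 8.35 and 12.5 CPM at 5% RPS, and at 6.29, 7.53, 8.11, 9.77 and 13.9 CPM at 10% RPS. At each RPS level 4 of 5 mice were below every control mouse, although the remaining mouse at 5 and at 10% RPS was above 4 of the 5 controls. The 2% RPS mice spanned less than 1 CPM, whereas the 5 and 10% RPS mice were widely spread, with SDs of 2.72 and 2.96 CPM. The log2 fold change was −0.66 ± 0.20 at 5% RPS (edgeR adjusted p = 0.346), −0.48 ± 0.20 at 10% RPS (adjusted p = 0.269) and −0.24 ± 0.20 at 2% RPS (adjusted p = 0.9997).

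Mrc1, the mannose receptor (ENSMUSG00000026712, chromosome 2, 14234151 to 14336926), was at 18.5, 19.6, 20.2, 23.5 and 34.7 CPM at 0% RPS. It was at 11.7, 12.2, 14.9, 15.2 and 19.1 CPM at 5% RPS and at 16.3, 18.4, 19.2, 20.2 and 24.6 CPM at 10% RPS. At 5% RPS 4 of 5 mice were below every control, and at 10% RPS only 2 of 5 were. The log2 fold change was −0.67 ± 0.16 at 5% RPS (edgeR adjusted p = 0.325) and −0.24 ± 0.16 at 10% RPS (adjusted p = 0.494). DESeq2 called Mrc1 at 5% RPS (adjusted p = 0.039), in 13 of 20 fits that left out a mouse each and not without mouse RS10_708 (log2 fold change −0.48, adjusted p = 0.196). The difference between the 5 and 10% RPS groups was not tested.

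Lyz2, lysozyme M, an enzyme that breaks bacterial cell walls (ENSMUSG00000069516, chromosome 10, 117111557 to 117118346 on the minus strand), had the highest level of the 10 genes and, among the 9 genes other than Ccr2, the smallest difference at 5 and 10% RPS. It was at 124.2, 162.7, 166.0, 192.9 and 209.3 CPM at 0% RPS and at 116.3, 124.9, 133.7, 144.5 and 163.8 CPM at 5% RPS. These ranges overlapped for 4 of the 5 mice at 5% RPS. The log2 fold change was −0.32 ± 0.14 at 5% RPS (edgeR adjusted p = 0.509) and −0.19 ± 0.14 at 10% RPS (adjusted p = 0.567).

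The neighbouring gene Lyz1, the lysozyme of Paneth cells, resembles Lyz2 closely, and reads of 50 bases cannot always tell them apart. The coding sequences, 447 bases each, are 95.1% identical, with 22 differing bases and a longest identical run of 118 bases. The first 90 coding bases show how sparse the differences are, with the bases that differ in capitals (GRCm39 by the GENCODE annotation, minus strand, chr10:117118058-117118147 for Lyz2 and chr10:117128654-117128743 for Lyz1, within the first coding exon of each):
Lyz2: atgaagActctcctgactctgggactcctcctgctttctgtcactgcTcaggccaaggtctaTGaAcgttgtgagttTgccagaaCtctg
Lyz1: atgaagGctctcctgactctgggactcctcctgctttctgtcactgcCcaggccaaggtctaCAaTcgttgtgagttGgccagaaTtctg
Of the 2946 windows of 50 bases in the canonical Lyz2 transcript, 215 (7.3%) also occur in another gene, 195 of them in Lyz1. Lyz1 itself was counted at 8.90 ± 4.58 CPM at 0% RPS and 8.68 ± 2.56 CPM at 10% RPS, far below Lyz2, so reads passed from Lyz1 to Lyz2 could be few. For Ccr2 2.31% of the windows were shared with other genes, and for the other 8 genes at most 0.583%.

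The C1q genes encode the chains that join into the first component of the classical complement pathway. They lie side by side on the minus strand of chromosome 4 in GRCm39, C1qb at 136606009 to 136613511, C1qc at 136616466 to 136620376 and C1qa at 136623223 to 136626161, and together span 20.2 kb. The letters just before the start sites are shown because the transcripts of the 3 genes moved together from mouse to mouse, as given after them. GAGGAA, the core of the sites bound by PU.1 (Spi1), the master regulator of macrophages, was searched on both strands (TTCCTC on the other), in the 200 bases before the start of each canonical transcript, and matches are in capitals:
C1qa (chr4:136626162-136626361): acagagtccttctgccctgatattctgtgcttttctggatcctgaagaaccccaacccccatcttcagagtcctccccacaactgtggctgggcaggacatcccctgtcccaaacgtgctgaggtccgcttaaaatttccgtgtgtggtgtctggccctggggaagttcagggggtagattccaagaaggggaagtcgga
C1qb (chr4:136613512-136613711): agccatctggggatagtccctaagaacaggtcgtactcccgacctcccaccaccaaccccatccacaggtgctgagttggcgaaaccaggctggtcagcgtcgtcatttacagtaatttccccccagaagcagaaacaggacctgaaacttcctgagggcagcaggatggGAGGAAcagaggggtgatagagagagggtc
C1qc (chr4:136620377-136620576): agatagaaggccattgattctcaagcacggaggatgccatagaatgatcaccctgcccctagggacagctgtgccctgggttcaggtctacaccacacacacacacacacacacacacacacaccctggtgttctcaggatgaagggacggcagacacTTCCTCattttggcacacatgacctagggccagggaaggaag
The letters were found before C1qb and C1qc and not before C1qa, in 5 of 9 of the macrophage genes searched in this way (Csf1r was not searched), and in 19.1% of 17835 promoters of the same length of protein-coding genes in the table. A match describes these letters only and is not a measured binding site.

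In CPM, which is not corrected for transcript length, the C1q genes were alike in size. C1qa was at 30.8, 34.3, 43.7, 47.7 and 61.9 CPM at 0% RPS, at 24.7, 30.6, 30.7, 33.5 and 35.95 CPM at 5% RPS, and at 27.8, 32.3, 34.4, 35.6 and 40.9 CPM at 10% RPS. For C1qc, the values were 29.2, 32.9, 39.1, 42.8 and 65.9 CPM at 0% RPS and 21.7, 27.7, 28.7, 29.5 and 33.6 CPM at 5% RPS. C1qb ran from 28.0 to 56.4 CPM at 0% RPS and from 23.3 to 34.5 CPM at 5% RPS. For C1qa and C1qc, 3 of 5 mice at 5% RPS were below every control, and for C1qb 2 of 5 were, so that the diets overlapped for all 3 genes. The log2 fold changes at 5% RPS were −0.49 ± 0.14 for C1qa (edgeR adjusted p = 0.344), −0.46 ± 0.14 for C1qb (adjusted p = 0.346) and −0.57 ± 0.16 for C1qc (adjusted p = 0.325). At 10% RPS they were −0.35, −0.25 and −0.43, with adjusted p-values of 0.248, 0.411 and 0.192.

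Ccr2 (ENSMUSG00000049103, chromosome 9, 123901982 to 123913594) marks monocytes that have recently entered from blood, and it is also made by other blood cells. It was at 3.40, 4.05, 4.10, 6.49 and 7.504 CPM at 0% RPS and at 4.69, 5.33, 5.80, 6.05 and 8.04 CPM at 10% RPS. At 5% RPS it was at 4.33, 4.36, 4.38, 4.90 and 5.85 CPM, within the control range. The log2 fold changes were 0.23 ± 0.20 at 10% RPS (95% interval −0.17 to 0.63, edgeR adjusted p = 0.632), −0.10 ± 0.20 at 5% RPS (−0.50 to 0.30, adjusted p = 0.905) and 0.16 ± 0.20 at 2% RPS (−0.23 to 0.56, adjusted p = 0.9997). These intervals reach from a decrease to an increase, and the sign at 5% RPS turned to 0.073 without mouse RS10_708. Ccr2 was counted with 97 to 249 reads per mouse, the fewest of the 10 genes in 17 of the 20 mice.

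Whether the genes kept their proportions was tested by dividing each by Csf1r within the same mouse, on the log2 scale, with an exact two-sided permutation test over all splits of 5 and 5 mice, whose smallest possible p is 0.0079. The ratio of Ccr2 to Csf1r averaged 0.120 ± 0.038 in the controls, compared with 0.165 ± 0.041 on 2% RPS, 0.155 ± 0.017 on 5% and 0.172 ± 0.039 on 10%. It was higher in each RPS group, by 0.49, 0.43 and 0.56 log2 units, with exact permutation p-values of 0.119, 0.103 and 0.0873. The ratio of Cd68 to Csf1r was 0.259 ± 0.030 at 0% RPS and 0.218 ± 0.020 at 10% RPS, a log2 difference of −0.25 (exact permutation p = 0.0397). After adjustment over the 27 ratio tests, 0 passed, and the lowest adjusted p was 0.643. The CPM of the C1q genes stayed near that of Csf1r, with mean ratios between 0.882 and 1.04 in all diets. These ratios are not corrected for transcript length, and levels per length are given below.

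Across the 20 mice, the genes other than Ccr2 varied together. Of the 45 pairs of log2 CPM values, 34 had a Pearson correlation with a permutation p of at most 0.05 after adjustment over the 45 pairs, and 30 had such a Spearman correlation. C1qa and C1qc were the closest pair, with r = 0.97 and rho = 0.94 (permutation p = 1e-05 for each, the smallest that 100000 permutations can give), and r = 0.95 without the 2 mice farthest from the median of C1qa (RS10_708 and RS10_721). C1qa with C1qb gave r = 0.93 and rho = 0.78, and C1qb with C1qc r = 0.94 and rho = 0.80 (adjusted permutation p = 4.09e-05 for each r).

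The weaker pairs set several genes apart. Cd163 followed Mrc1 with r = 0.83 but Lyz2 with r = 0.30. Lyz2 followed Adgre1 with r = 0.82. The 9 pairs with Ccr2 had r between 0.078 and 0.36, and 0 of the 9 passed the adjusted threshold by either coefficient. With the mean of each diet subtracted, 29 of the 45 pairs passed by Pearson, including the 3 pairs of C1q genes (r of 0.92 to 0.95). These pairs thus also varied together between mice on the same diet. The median r was also taken without the 2 mice farthest from the median of the first-listed gene of each pair. Over the 45 pairs it was then 0.56 compared with 0.70, and mouse RS10_708 was among those left out for 39 of the pairs. With diet means subtracted, the median r was 0.53 without the 2 mice chosen in this way compared with 0.61. Differences between the correlations were not tested.

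**Figure D3:**
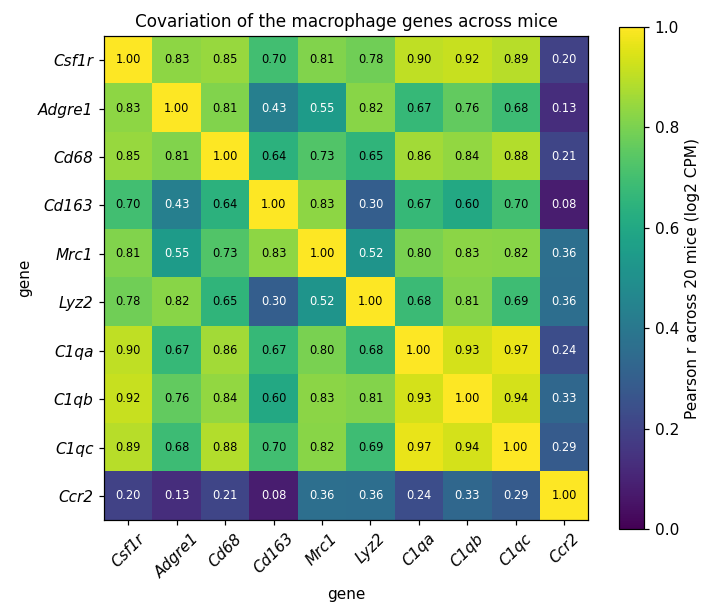
Pearson r between the log2 CPM of each pair of macrophage genes over 20 mice, with the value in each cell and colour from 0 (dark) to 1 (yellow). The C1q genes and Csf1r form a block of high values (0.89 to 0.97), and the row of Ccr2 is dark (0.08 to 0.36).

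Levels per length of transcript (TPM, counts divided by the length of the merged exons and then scaled to the same sum in every mouse) allow genes to be compared with each other. On this scale Lyz2 was highest at 155.9 ± 28.7 (SD over 20 mice), followed by C1qa at 77.6 ± 17.1 and C1qc at 40.3 ± 10.5. Cd68 at 22.2 ± 6.62, C1qb at 18.5 ± 3.89 and Csf1r at 17.1 ± 3.69 came next, with ranges of mean ± SD that overlapped. Within a mouse the order was more regular, with Cd68 above Csf1r in 20 of 20 mice and above C1qb in 18. Mrc1 at 8.36 ± 2.12, Adgre1 at 7.59 ± 2.15 and Cd163 at 6.30 ± 1.81 also overlapped, with Mrc1 above Cd163 in 20 of 20 mice and above Adgre1 in 14. Ccr2 was lowest at 2.74 ± 0.65. With the length of the canonical transcript, C1qb was at 28.9 ± 6.08 and came before Cd68.

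The genes most like the 10 were sought among all tested genes by the Pearson r, over 20 mice, between their log2 CPM and the mean z-score of the 10, as a description without a test. Lgmn, a protease of the lysosome, came first (r = 0.93), followed by Stab1, a scavenger receptor (r = 0.89), Fcgr3, an antibody receptor (r = 0.87), Fcna, a ficolin (r = 0.86), Anpep, Pltp and Cd33 (r = 0.85 for each) and Fcer1g, Gpnmb and Dab2 (r = 0.84 for each). Without mouse RS10_708 these values were between 0.74 and 0.86. Their diet means follow from this choice and are not a separate result. This holds also for Stab1, whose means are given below.

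Other genes of resident macrophages were mostly on the same side, in a list drawn up with earlier results of these data known. Of 23 tested genes of a list of other resident macrophage genes, all 23 were lower at 5% RPS and 20 at 10% RPS (52.0 and 53.2% of all tested genes). Their median log2 fold changes were −0.30 and −0.25. With 1 mouse left out at a time these medians ran from −0.43 to −0.20 and from −0.36 to −0.093 (the last without RS10_703). Of the 23, 9 at 5% RPS and 8 at 10% RPS were lower with an unadjusted p under 0.05 (4.5 and 7.87% of all tested genes), and 0 passed the adjusted threshold of edgeR. Stab1, named above for its likeness to the 10 genes, was at 53.5 ± 13.4, 35.2 ± 2.96 and 37.8 ± 4.30 CPM at 0, 5 and 10% RPS. These means follow from that choice. Pf4, platelet factor 4, which tissue macrophages also make and which is named here after its values were seen, was at 10.3 ± 1.89, 5.93 ± 1.28 and 6.78 ± 1.09 CPM. DESeq2 called Pf4 at 5 and 10% RPS (adjusted p = 0.014 and 0.034) and Stab1 at 5% RPS (adjusted p = 0.029). It called 0.027 and 0.274% of all genes lower at 5 and 10% RPS. The DESeq2 fits without a mouse and by the treatment label covered the 10 genes only. Whether the calls of Pf4 and Stab1 depend on single mice or on the labels was thus not tested. The most abundant genes of the list were Gas6, a bridge to dying cells, with log2 fold changes of −0.25 at 5% RPS and −0.34 at 10% RPS, Apoe (−0.32 and −0.43) and Axl (−0.21 and −0.08).

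Complement genes other than C1q followed the same side less evenly. Of 16 tested genes, 15 were lower at 5% RPS and 12 at 10% RPS (52.0 and 53.2% of all tested genes), with medians of −0.26 and −0.12. Cfb, factor B of the alternative pathway, had means of 12.2 ± 2.25 CPM without RPS and 8.80 ± 1.02 CPM with 10%, and it fell with RPS percent (edgeR trend, adjusted p = 0.035). C3, the most abundant with Serping1 and Cr1l, was at 106.0 ± 31.8 and 138.4 ± 34.3 CPM. Of the 6 receptors and adaptors for antibodies, 4 were lower at 5% RPS and 4 higher at 10% RPS, where 52.0 and 53.2% of all tested genes were lower. The lysosomal genes of phagocytes were nearly level, with a median of −0.082 at 5% RPS and −0.026 at 10% RPS, and among them Ctsz, cathepsin Z, rose with RPS percent (118.7 ± 7.61 to 146.1 ± 15.5 CPM at 10% RPS, edgeR trend, adjusted p = 0.021).

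Genes of monocytes and of their recruitment lay on the other side at the highest dose. All 16 tested genes of this list, which does not hold Ccr2, had a higher estimate at 10% RPS, and the median on the log2 scale was 0.43. Of all tested genes, 53.2% were lower at 10% RPS and 52.0% at 5% RPS. At 5% RPS 7 of the 16 were lower, with a median of 0.23 that ran from 0.078 without RS10_721 and 0.10 without RS10_708 to 0.36 without RS10_703. At 10% RPS 3 of the 16 were higher with an unadjusted p under 0.05 (7.32% of all tested genes), and 0 passed after adjustment. Plac8, which is made by monocytes and also by colon epithelium, rose with RPS percent, from 726.4 ± 104.9 CPM in controls to 1051 ± 171 CPM on 10% RPS (edgeR trend, adjusted p = 0.026), and it made up most of the summed level of the list. Cd14 was level, at 41.8 ± 2.83 and 41.9 ± 5.49 CPM.

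Of 10 tested genes of inflammatory activation, 9 had higher estimates at 10% RPS and 8 at 5% RPS, with medians of 0.19 and 0.081. Of all tested genes, 53.2 and 52.0% were lower at these levels. Il18, a cytokine that epithelium makes in quantity, rose with RPS percent (101.7 ± 15.7 to 129.1 ± 14.5 CPM at 10% RPS, edgeR trend, adjusted p = 0.037). The growth factors and regulators of macrophages had medians of −0.0016 at 5% RPS and −0.15 at 10% RPS, and the most abundant of them were Irf8 (log2 fold change 0.29 at 10% RPS, edgeR adjusted p = 0.158), Cebpa (−0.24, adjusted p = 0.258) and Il34, a ligand of Csf1r (−0.39, adjusted p = 0.440). Spi1, which encodes PU.1 and is named here for the letters searched above, was at 5.54 ± 1.27 CPM in controls and 4.91 ± 0.48 CPM on 10% RPS. Genes linked to alternative activation had medians of 0.020 and 0.086, and the first ran from −0.065 without RS10_704 to 0.15 without RS10_703. None of the trends of Cfb, Plac8, Il18 and Ctsz was past the threshold when mice were grouped by the treatment label, and only that of Ctsz was past it without the 3 mice whose labels conflict. With 1 mouse left out at a time, the trend passed in 11 of 20 fits for Cfb (highest adjusted p by edgeR 0.102), in 16 for Plac8 (0.101), in 12 for Il18 (0.129) and in 18 for Ctsz (0.0815, lost without RS10_731 or RS10_784). Without RS10_708 and without RS10_784 each of Cfb, Plac8 and Il18 was lost.

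**Figure D4:**
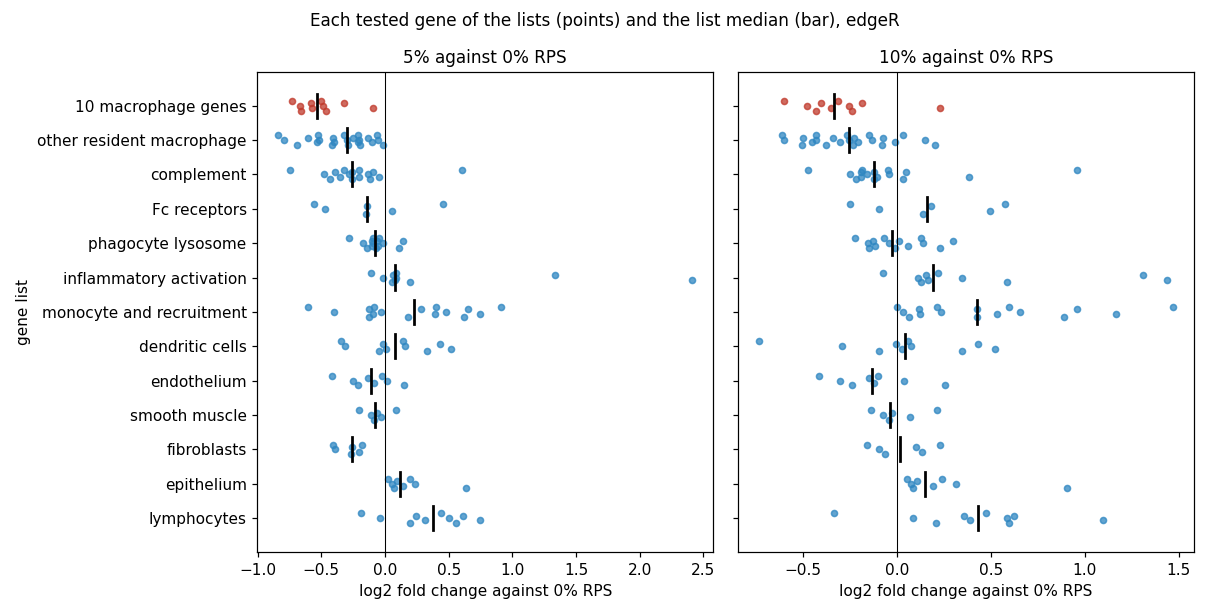
Log2 fold change against 0% RPS (horizontal axes) of each tested gene in the lists named on the vertical axis, at 5% RPS (left) and 10% RPS (right), with the list median as a bar. The 10 macrophage genes are in red, with medians of −0.54 and −0.33, and the monocyte and recruitment list has medians of 0.23 and 0.43.

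Markers of other cells of the wall were measured beside these genes. Epithelial genes summed to 16334 ± 2062 CPM in controls and 18730 ± 2354 CPM on 10% RPS. All 8 had higher estimates at 10% RPS, where 53.2% of all tested genes were lower. Among them Krt20 rose with RPS percent (565.5 ± 226.1 to 1060 ± 199 CPM, edgeR trend, adjusted p = 0.025). Hoxb13 fell with RPS percent, to 413.8 ± 25.2 CPM on 10% RPS (edgeR trend, adjusted p = 0.043). Neither trend was past the threshold by the treatment label, without the 3 mice with disagreeing labels or without mouse RS10_708, and with 1 mouse left out at a time Krt20 passed in 18 of 20 fits and Hoxb13 in 7. Fibroblast genes summed to 1690 ± 381 CPM in controls and 1396 ± 211 CPM on 5% RPS. All 6 estimates were lower there (52.0% of all tested genes), with a median of −0.26. Smooth muscle genes, at 8804 ± 1632 and 8290 ± 1567 CPM, had a median of −0.076, which ran from −0.17 without RS10_707 to 0.033 without RS10_721. Lymphocyte genes summed to 292.2 ± 263.7 CPM in controls and 557.2 ± 175.9 CPM on 10% RPS. These sums overlapped, at 93.0 to 753.0 CPM and 399.9 to 833.0 CPM, and 0 of the 10 genes passed after adjustment by edgeR. The median log2 fold change of lymphocyte genes at 10% RPS was 0.43 and ran from 0.21 to 0.69 with 1 mouse left out at a time. Dendritic cell genes had medians of 0.074 and 0.044, mast cell genes of 0.18 and 0.63, and endothelial genes of −0.11 and −0.13. These small medians moved with single mice: that of dendritic cells at 10% RPS ran from −0.052 without RS10_704 to 0.16 without RS10_784, and that of mast cells at 5% RPS from −0.055 without RS10_719 to 0.29 without RS10_708. Of 9 neutrophil genes only Csf3r passed the filter (1.45 ± 0.45 CPM in controls and 1.79 ± 0.29 CPM on 10% RPS). The part of these other cells in the levels of the macrophage genes was not tested.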

How the data were processed

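The authors isolated RNA from the DC of each mouse, prepared stranded mRNA libraries and sequenced single reads of 50 bases. Bases below a quality of 30 were removed, reads were mapped to GRCm39 in the CLC Genomics Workbench, and the authors deposited raw counts per Ensembl gene. The annotation release, the use of strand and the handling of reads matching several genes are not given in the sources used here. Symbols were taken from GENCODE (26338 of 26619 identifiers matched).

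Genes were filtered with filterByExpr, scaled by TMM and tested with the robust quasi-likelihood test of edgeR 4.0.16 (limma 3.58.1, R 4.3.3) over all 20 mice, with diet as 4 groups, or RPS percent as a line for the trend. P-values were adjusted by Benjamini-Hochberg over 17893 genes, and a call needed an adjusted p of at most 0.05 and a 1.5-fold change (adjusted p only for the trend and the test of any diet). DESeq2 1.42.0 and limma-voom were alternatives. A prior count of 2 was added for log2 CPM. The steps were tested on simulated data.

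The 10 genes and the gene lists were chosen with earlier results of these data known. Named from the lists were genes that passed an edgeR test, besides those at most the 3 with the highest mean CPM of a list, and the 10 genes most like the 10 by Pearson r. Of the genes that passed, 1 is not reported here. The DESeq2 fits without a mouse and with the other label, and lengths of canonical transcripts, were added after seeing the data. No pair of mice of a diet differed by less than sampling noise. Each sample was taken as a separate mouse from its number, and p-values measure the spread between mice.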

Additional observations from a re-analysis of the deposited data

Results flagged for a closer look

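Of 80 groups of 5 mice examined for a value far from the rest, 4 held one, and chance gives about 1 in 20, or 4.0 of 80. Cd163 was at 17.6 CPM in mouse RS10_708 of the 0% RPS group, compared with 12.1 CPM in the next highest of that diet. Mrc1 was at 21.6 CPM in mouse RS10_748 of the 2% RPS group, whose labels disagree, compared with 17.9 CPM in the next highest. In mouse RS10_727 of the 10% RPS group the log2 ratio to Csf1r was −2.56 for Adgre1, compared with −2.27 in the next lowest mouse, and −0.33 for C1qb, compared with −0.09. This mouse had the highest Csf1r level of its diet, 44.3 CPM, and the smallest library of the 20.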

How the results depend on the processing

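DESeq2 in place of edgeR called 1 of the 10 genes at 10% RPS, 2 at 5% RPS, 1 over the trend and 2 for any diet, where edgeR called 0. Over all genes the calls were 210 compared with 7 at 10% RPS, 31 with 0 at 5%, 1 with 0 at 2%, 985 with 375 for the trend and 349 with 13 for any diet. Leaving out 1 mouse at a time, edgeR called 0 to 1 of the 10 at 10% RPS (Cd68 without RS10_704, adjusted p = 0.049) and 0 to 2 over the trend (Cd68 and Cd163 without RS10_727), and DESeq2 called 0 to 2 at 10% RPS and 0 to 6 at 5% RPS, mostly 1 or 2, with 3 without RS10_718 and 6 without RS10_704. No paired analysis was possible because mouse numbers are unique to an animal. The log2 fold change of Ccr2 at 5% RPS ran from −0.22 to 0.073.

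Ratios to Csf1r near 0 turned sign. By the treatment label the difference was 0.040 for C1qa at 10% RPS, −0.011 for C1qa at 5% and −0.056 for Cd163 at 2%, and without the 3 mice with disagreeing labels −0.0069 for C1qa at 5%. With Adgre1 as reference it was 0.022 for C1qa at 10%, and at 2% −0.061 for Cd68, −0.023 for Lyz2, −0.0029 for C1qa and −0.013 for C1qb. With a mouse left out, the ranges at 10% RPS were −0.10 to 0.016 for Adgre1 and −0.070 to 3.80e-05 for C1qa. At 5% RPS they were −0.13 to 0.017 for Adgre1, −0.032 to 0.046 for C1qa, −0.00088 to 0.071 for C1qb and −0.10 to 0.016 for C1qc. At 2% RPS they were −0.044 to 0.17 for Adgre1, −0.055 to 0.080 for Cd68, −0.020 to 0.16 for Cd163, −0.11 to 0.058 for Mrc1, −0.015 to 0.13 for Lyz2 and −0.053 to 0.062 for C1qc. The r of Csf1r with Ccr2 ran from −0.01 to 0.36. The cause was not tested. Under a filter of 1 CPM in 5 mice, and with 2 diets in the fit, no pancreas gene was left at some levels.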
